A study of Mus musculus with 5 samples.

Results

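Heat shock proteins were followed as 10 genes in the colon of mice that received NT-3N, which activates the receptor of interleukin-11: Hspa1a, Hspa1b, Hspa8, Hsp90aa1, Hsph1, Dnajb1, Hspb1, Hspd1, Hspe1 and Bag3. The genes were chosen by name, with earlier results of these data known, and all of their probes on the arrays were used. They had 19 of the 56605 probes, all flagged as well above background on each of the 5 arrays. All 10 genes were among the 32917 features tested. A feature is a gene, given by its brightest probe, or an accession without a gene symbol.

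Whole colon of wild-type C57BL/B6 mice was measured on single-colour arrays, 1 mouse per array. The Control group had 2 arrays and carries no treatment or vehicle in its labels. The NT-3N group had 3 arrays of mice killed 3 hr after an intravenous injection of NT-3N, described in the methods as human IL-11 with linker mutations. Injection and agonist cannot be told apart in this design, and the sources differ on the unit of the injected mass, so no dose is given. The arrays shared 1 slide and 1 scan time. The injected mice were 8 weeks old.

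Heat shock proteins are molecular chaperones, which bind unfolded or partly folded proteins and help them to fold, to assemble or to be degraded. HSP70 proteins work in cycles of ATP hydrolysis, which J-domain proteins start and nucleotide exchange factors end, and hand some of their clients on to HSP90. The stress-inducible members are transcribed by heat shock factor, which binds arrays of the unit GAA in alternating orientation, called heat shock elements. Heat, loss of blood flow and tissue handling are known inducers, and constitutive members such as Hspa8 and the mitochondrial chaperonin are abundant in unstressed tissue.

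The sequences upstream of the genes are shown first, because they tell apart the members that share a regulatory stretch from those that do not. For 8 of the 10 genes the RefSeq table of build GRCm38.p6 held promoter windows, and the 250 bases before the start were searched on both strands. The element of 3 units, GAANNTTCNNGAA or TTCNNGAANNTTC, was found for Hspd1 and Hspe1, and in 0.514% of 27025 genes. Hspd1 and Hspe1 lie head to head on chromosome 1, and the match was the same stretch read from either strand (the strand is given in brackets, and capitals mark the element):

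Hspd1, chr1:55088044-55088091 (-): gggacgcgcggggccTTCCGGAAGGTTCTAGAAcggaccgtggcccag

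Hspe1, chr1:55088044-55088091 (+): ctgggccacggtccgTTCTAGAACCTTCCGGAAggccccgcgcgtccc

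The shorter element of 2 units, GAANNTTC or TTCNNGAA, is also contained in the longer one. It was found for 6 of the 8 genes, Hspa1a, Hspa1b, Hspb1, Hsph1, Hspd1 and Hspe1, and in 14.5% of all genes. Over the 250 upstream bases Hspa1a and Hspa1b were identical at 247, or 98.8%, and the stretch around their element was the same. These stretches are shown with the 2-unit elements in capitals, for comparison with the arrays below:

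Hspa1a, chr17:34972238-34972275 (-): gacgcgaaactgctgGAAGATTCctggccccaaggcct

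Hspa1b, chr17:34959320-34959357 (-): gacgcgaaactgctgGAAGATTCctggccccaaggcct

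Hsph1, chr5:149636347-149636384 (-): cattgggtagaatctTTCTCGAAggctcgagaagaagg

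Hspb1, chr5:135887787-135887844 (+): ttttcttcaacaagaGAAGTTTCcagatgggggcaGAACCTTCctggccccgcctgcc

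The windows of Dnajb1 and Bag3 held neither form of the element, and nor did a second window of Hspd1, at another start. A gene was counted where any of its windows held a match. The letters TTCNNNGAA, a motif of STAT factors, were found upstream of 0 of the 8 genes and of 8.13% of all genes. A match is a description of letters in a window and no evidence of binding.

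NT-3N replicate 1 was low for these genes and for several other lists of genes. By the brightest probes it was the lowest of the 5 arrays for 9 of the 10 genes, where 25.6% of all features were lowest on it. NT-3N replicate 3 was the lowest for Hsp90aa1, and the other arrays for 0 of the 10. This depended on the probe for some genes. On the other probe of Hsp90aa1 NT-3N replicate 1 was the lowest, and on the second probe of Hspd1 and the dimmest of Hspe1 it was not. Relative to the other 4 arrays the median deviation of the 10 genes on NT-3N replicate 1 was -0.30 log2 units, beside 0.00091 over all features, a value that quantile normalization holds near 0 on every array. The same array was the lowest for 8 of 11 other HSP70 and HSP110 genes, 10 of 16 endoplasmic reticulum stress genes, 6 of 8 enteric neuron and glia markers and 5 of 8 smooth muscle markers, but for 1 of 9 mitochondrial chaperone and protease genes and 1 of 12 immediate early genes. The mean log2 level of the enteric markers was 8.81 on it and between 9.09 and 9.26 on the other 4 arrays, and that of the smooth muscle markers was 14.81 on it and between 14.99 and 15.35 on the others. Only Hspb1, Dnajb1 and Hspe1 had a log2 fold change above 0 with this array included, and Bag3 was also above 0 without it, at 0.046. Array quality weights gave this array 0.37, the lowest weight of the 5, and NT-3N replicate 2 the highest, 2.19. The part of these markers in the low values on this array was not tested.

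None of the 10 heat shock protein genes changed at the threshold of the test across all features. Hsph1 had the lowest NT-3N level relative to Control, 1.97-fold lower, and its arrays did not overlap between the groups. Hsp90aa1 and Hspa8 were lower by smaller amounts and also did not overlap. Hspa1a and Hspa1b were lowest on NT-3N replicate 1 and overlapped Control only on NT-3N replicate 3. Dnajb1, Hspb1, Hspd1, Hspe1 and Bag3 overlapped between the groups.

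At an adjusted p under 0.05 limma called 0 of the 10 genes higher and 0 lower, where it called 0.125% of all features higher and 0.0182% lower. At an unadjusted p under 0.05 it had 3 of the 10 lower, where 4.67% of all features were lower, and 0 of the 10 higher, where 4.95% were higher. The 3 NT-3N arrays lay below both Control arrays for the same 3 genes, Hsph1, Hsp90aa1 and Hspa8, against 14.8% of all features, and above them for 0 of the 10, against 13.5%. The local-pooled-error test named in the methods called 1 of the 10, Hsph1, as did limma with array quality weights. On data simulated from limma's own model the local-pooled-error test made more false calls than its threshold allows. In all, 7 of the 10 had a log2 fold change under 0 and 3 above it, where 53.6% of all features were under 0. The median of the 10 was -0.16, beside -0.019 over all features. Without NT-3N replicate 1 the median was -0.044.

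**Figure D1:**
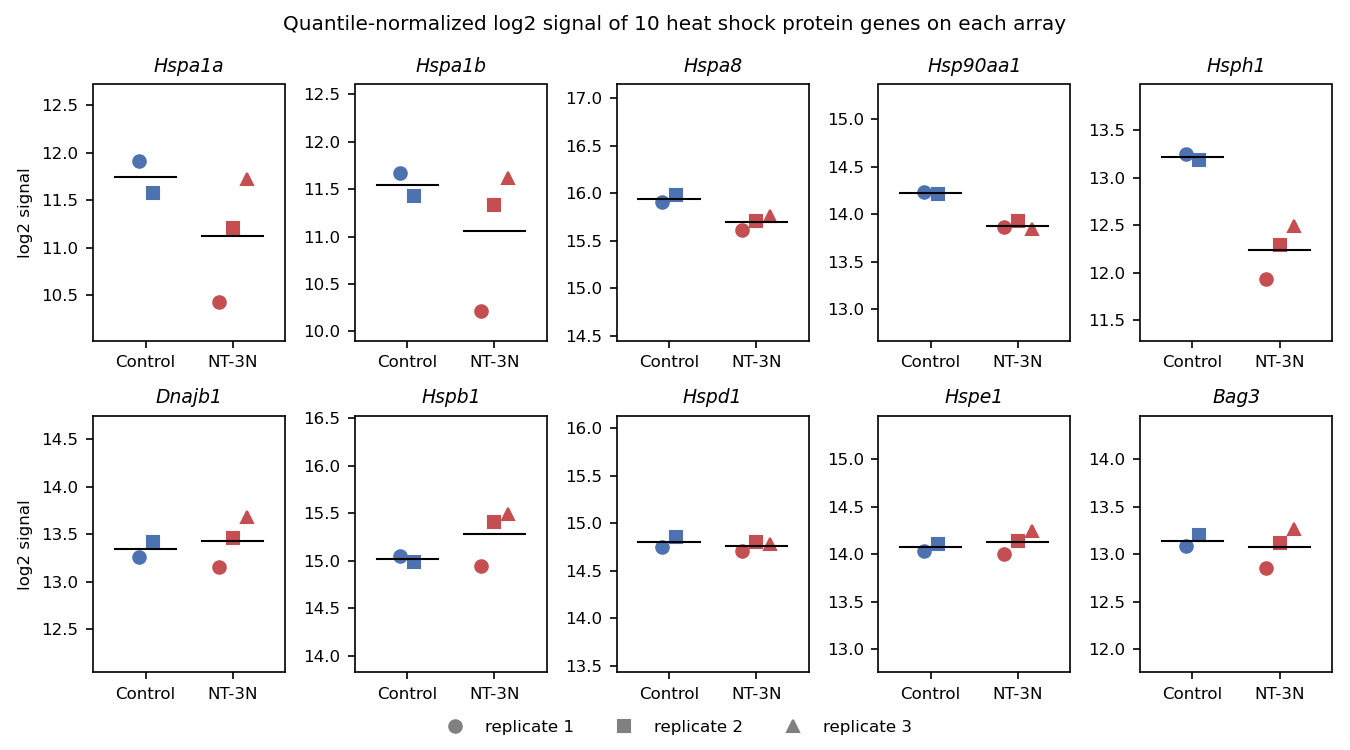
Quantile-normalized log2 signal of the 10 genes on each array (vertical axis, log2 units; each panel spans the same 2.7 log2 units), with Control in blue, NT-3N in red, symbols for the replicate and a line at the group mean. Hsph1, Hsp90aa1 and Hspa8 show no overlap between groups, and Hspa1a and Hspa1b have 1 NT-3N array, replicate 1, far below the other 4.

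Among the HSP70 genes, Hspa1a and Hspa1b encode the near-identical stress-inducible HSP70 proteins of the cytosol. Hspa1a had a log2 signal of 11.91 and 11.57 on Control replicates 1 and 2, and of 10.43, 11.20 and 11.73 on NT-3N replicates 1, 2 and 3. Hspa1b had 11.67 and 11.42 in Control, and 10.21, 11.33 and 11.62 in NT-3N. For both genes NT-3N replicate 1 was the lowest array, by 0.77 for Hspa1a and by 1.11 for Hspa1b on the log2 scale. NT-3N replicate 2 was also below both Control arrays, while NT-3N replicate 3 lay between them. The log2 fold change was -0.62 for Hspa1a, with a 95% interval from -1.48 to 0.23, and -0.49 for Hspa1b, with an interval from -1.44 to 0.45. Their adjusted p in limma was 0.63 and 0.73. The difference of the means was smaller than the SD of the NT-3N arrays, 0.65 for Hspa1a and 0.74 for Hspa1b.

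The values of this pair rested largely on 1 array. Without NT-3N replicate 1 the log2 fold change was -0.28 for Hspa1a and -0.075 for Hspa1b. Each gene had 1 probe, and with near-identical transcripts the 2 probes may bind RNA of both, so they do not count as independent measurements. Centred on their own means, the profiles of the pair differed by a root mean square of 0.13 log2 units over the 5 arrays.

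Hspa8 encodes the constitutive HSP70 of the cytosol. Its log2 signal was 15.91 and 15.98 in Control, and 15.62, 15.71 and 15.76 in NT-3N replicates 1, 2 and 3. All 3 NT-3N arrays were below both Control arrays, by little. The means were 15.95 ± 0.050 (SD, n = 2) and 15.70 ± 0.072 (SD, n = 3). The log2 fold change, -0.25 with a standard error of 0.071, did not pass (limma, adjusted p = 0.36), and it also missed an unadjusted p of 0.05 in 4 of the 17 alternatives. It was measured by 4 probes, with log2 fold changes from -0.27 to -0.20, and for each of the 4 probes the NT-3N arrays lay below the Control arrays.

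The partners of HSP70 did not move alike. Hsph1 encodes the HSP110 protein that exchanges the nucleotide of HSP70. It had a log2 signal of 13.25 and 13.19 in Control, and of 11.94, 12.29 and 12.50 in NT-3N replicates 1, 2 and 3. Every NT-3N array was lower than either Control array, and replicate 1 was the lowest. The means were 13.22 ± 0.043 (SD, n = 2) and 12.24 ± 0.28 (SD, n = 3).

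Hsph1 had a log2 fold change of -0.98 ± 0.16 (SE), a 95% interval from -1.37 to -0.59, and an adjusted p in limma of 0.13. Its other probes had log2 fold changes of -0.92 and -0.81, and for all 3 probes the groups did not overlap. The probe at -0.81 was dim, with a log2 signal between 4.58 and 5.95. The value lay between -1.11 and -0.83 over all 17 alternatives, the latter without NT-3N replicate 1. The adjusted p was 0.035 with array quality weights in limma, 0.00024 in the local-pooled-error test, and ranged up to 0.50 under the other alternatives.

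Dnajb1, the J-domain protein that delivers clients to HSP70, had a log2 signal of 13.26 and 13.41 in Control, and of 13.16, 13.46 and 13.68 in NT-3N replicates 1, 2 and 3. Its NT-3N arrays lay on both sides of the Control arrays, at a log2 fold change of 0.092 with a 95% interval from -0.29 to 0.47. Bag3, a nucleotide exchange factor that links HSP70 and small heat shock proteins to autophagy, had 13.09 and 13.21 in Control, and 12.86, 13.12 and 13.27 in NT-3N. These arrays also overlapped, and the log2 fold change of -0.064 had an interval from -0.38 to 0.25. The adjusted p in limma was 0.87 for Dnajb1 and 0.90 for Bag3.

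Hsp90aa1 encodes the stress-inducible form of cytosolic HSP90, which matures kinases and steroid receptors. Its log2 signal was 14.23 and 14.21 in Control, and 13.87, 13.93 and 13.85 in NT-3N replicates 1, 2 and 3. The arrays of each group lay close together and the groups did not overlap. Means of 14.22 ± 0.011 (SD, n = 2) and 13.88 ± 0.041 (SD, n = 3) gave a log2 fold change of -0.34 ± 0.068 (SE), or 1.27-fold lower (limma, adjusted p = 0.20). The other probe had a log2 fold change of -0.32 and did not overlap between groups either. Of the 10 genes it was the one for which NT-3N replicate 1 was not the lowest array by the brightest probe. On the other Hsp90aa1 probe NT-3N replicate 1 was the lowest array, at 13.09, beside 13.47 and 13.30 on NT-3N replicates 2 and 3.

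Hspb1, a small heat shock protein that holds unfolded proteins without ATP, was the member with the highest log2 fold change. It had a log2 signal of 15.05 and 14.99 in Control, and of 14.94, 15.40 and 15.49 in NT-3N replicates 1, 2 and 3. NT-3N replicates 2 and 3 were above both Control arrays and replicate 1 was below them. The log2 fold change was 0.26, with a 95% interval from -0.13 to 0.66 (limma, adjusted p = 0.66). Without NT-3N replicate 1 it was 0.43, with an adjusted p of 0.090 in limma.

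Hspd1 and Hspe1, which share the upstream stretch shown above, encode HSP60 and HSP10, the chaperonin of mitochondria and its lid. Hspd1 had a log2 signal of 14.75 and 14.86 in Control, and of 14.70, 14.80 and 14.78 in NT-3N replicates 1, 2 and 3. Hspe1 had 14.04 and 14.11 in Control, and 14.01, 14.14 and 14.24 in NT-3N. The groups overlapped for both genes. The log2 fold change was -0.042 for Hspd1, with a 95% interval from -0.22 to 0.13, and 0.056 for Hspe1, with an interval from -0.16 to 0.28. Their adjusted p in limma was 0.87 each. The second probe of Hspd1 had a log2 fold change of 0.0023 and the other probes of Hspe1 had -0.095 and -0.052, so the sign of either gene depended on the probe.

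**Figure D2:**
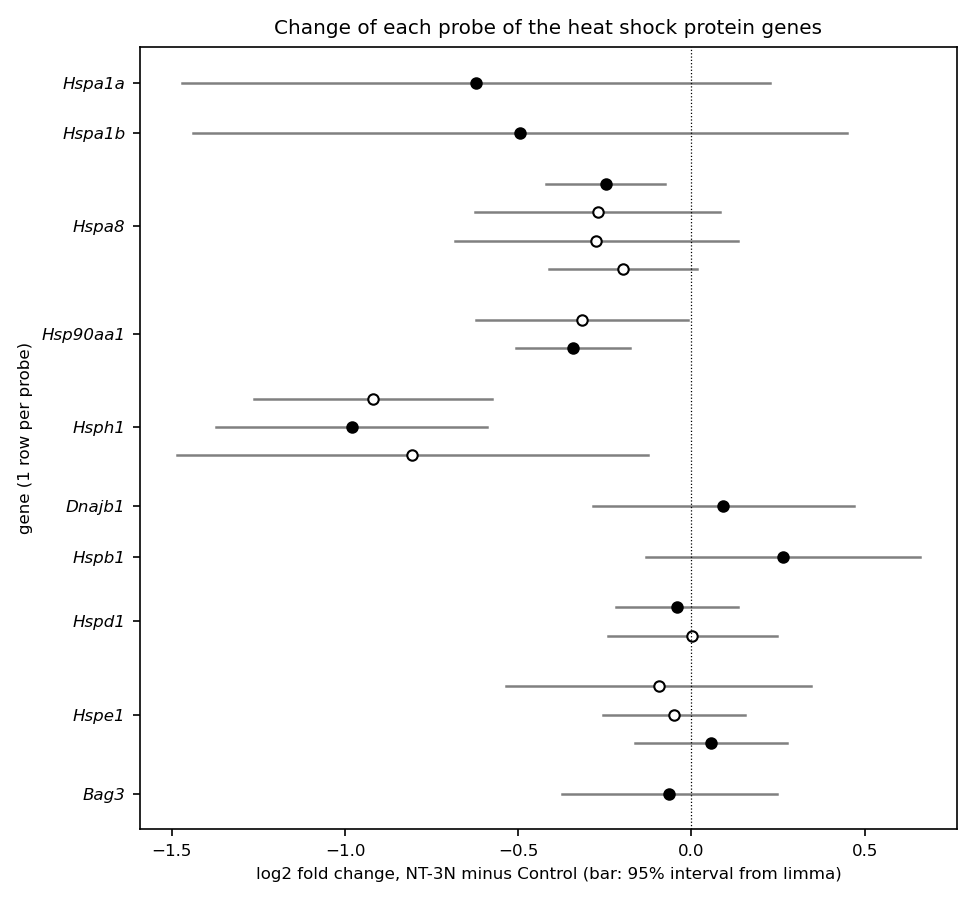
Log2 fold change of NT-3N minus Control (horizontal axis, log2 units) for each of the 19 probes, with the 95% interval from limma as a bar, filled for the brightest probe of a gene and open for its other probes. All probes of Hsph1, Hsp90aa1 and Hspa8 lie below 0, and those of Hspd1 and Hspe1 lie on both sides of it.

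Likeness of profile was measured as the root mean square difference from the mean of Hspa1a and Hspa1b over the 5 arrays, each gene centred on its mean, among 16732 genes well above background on all arrays. The nearest were Bend4 at 0.10 log2 units, Olfr635 and Mtus2 at 0.12 each, Xkr4 at 0.12 and Vmn1r56 at 0.13. Of these Mtus2 had a log2 signal between 8.76 and 10.02, and the other 4 genes lay between 4.10 and 6.20. Among the other heat shock protein genes Hsph1 ranked nearest, 646th, at 0.34, and Bag3 followed at 1818th. By this measure no other member was among the nearest genes of the inducible pair. The profiles were centred but not scaled, so a gene that varied less can rank far even with a like shape.

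The further chaperone and stress genes were taken from 10 lists of genes by name, with values on the same scale and in the same fit as above. The counts in these lists stand beside shares over all features, of which 53.6% had a log2 fold change under 0. At an unadjusted p under 0.05 in limma, 4.67% were lower and 4.95% higher. Without overlap, 14.8% had NT-3N below and 13.5% above. In this paragraph and the next ones, examples other than the called or lowest-p gene of a list were named after their values were seen. Of 11 other HSP70 and HSP110 genes 1 was called, Hspa2, an HSP70 gene best known from testis. It had a log2 signal of 9.35 and 9.24 in Control, and of 10.86, 11.12 and 10.84 in NT-3N replicates 1, 2 and 3. All NT-3N arrays were far above both Control arrays. Hspa2 rose 3.12-fold, a log2 fold change of 1.64 ± 0.12 (SE; limma, adjusted p = 0.013). This call was kept in 11 of 17 alternatives and lost without Control replicate 1 (adjusted p = 0.057 in limma), NT-3N replicate 2 (0.063) or NT-3N replicate 3 (0.12), with no filter on dim probes (0.085), no intensity trend (0.092) and the replicate block (0.45). Its promoter window held neither form of the heat shock element nor the STAT letters.

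Hspa4l and Hspa4, which encode HSP110 proteins like Hsph1, differed in direction. Hspa4l had a log2 fold change of -0.58, with 11.11 and 11.13 in Control and between 10.39 and 10.63 in NT-3N, and Hspa4 had 0.30, with 13.45 and 13.27 in Control and between 13.58 and 13.79 in NT-3N. By these brightest probes neither pair of groups overlapped, and neither gene passed, with an adjusted p in limma of 0.17 for Hspa4l and 0.43 for Hspa4. The other probe of Hspa4 had 0.15 with overlapping groups, and the other probes of Hspa4l had -0.74 and -0.91 without overlap. The median of this list was -0.055, with 5 genes higher and 6 lower. Of the 3 other HSP90 genes 1 was higher and 2 were lower, with a median of -0.18, and the constitutive cytosolic form Hsp90ab1 was at -0.32 on the log2 scale (limma, adjusted p = 0.37).

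Co-chaperones of HSP90 and HSP70 were lower for 10 of 13 genes, with a median log2 fold change of -0.27 beside -0.019 over all features. At an unadjusted p under 0.05, 5 of the 13 were lower and 0 higher, where 4.67% of all features were lower and 4.95% higher. None of the 13 passed the adjusted threshold in limma. Chordc1, a co-chaperone of HSP90, was at -0.51 (limma, adjusted p = 0.17). Ahsa2, a gene of the HSP90 ATPase activator family, had -0.47. Stip1, which joins HSP70 to HSP90, had -0.41, and St13, which binds HSP70, had -0.33. The groups did not overlap for 7 of the 13, all with NT-3N below, against 14.8% of all features.

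Other small heat shock protein genes were lower for 7 of 7 tested, with a median log2 fold change of -0.52, while Hspb1 had 0.26. At an unadjusted p under 0.05, 5 of them were lower, against 4.67% of all features, and 0 passed the adjusted threshold in limma. Cryab, which encodes alpha-B crystallin, went from 11.89 and 12.00 in Control to 11.05, 11.33 and 11.39 in NT-3N replicates 1, 2 and 3, a difference of -0.69 on the log2 scale (limma, adjusted p = 0.17). Hspb2 had -0.78, Hspb7 -0.56 and Hspb6 -0.37, and these genes are known for their expression in muscle. Hspb9, not named for muscle here, was also among the 5, at -0.52 without overlap between groups. The other probe of Hspb7 had -0.42 with overlapping groups, and that of Hspb6 had -0.24 without overlap. In bulk tissue, fewer cells of a type and less RNA per cell cannot be told apart. Smooth muscle markers were also lower, for 8 of 8 genes, with a median of -0.28. At an unadjusted p under 0.05, 4 of the 8 were lower, against 4.67% of all features. Their mean log2 level was 15.31 and 15.35 in Control and between 14.81 and 15.11 in NT-3N, and all 8 were well above background on every array. Smtn, a smooth muscle cytoskeletal gene, had -0.88 with an adjusted p of 0.062 in limma. The part of muscle content in the small heat shock protein values was not tested.

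**Figure D3:**
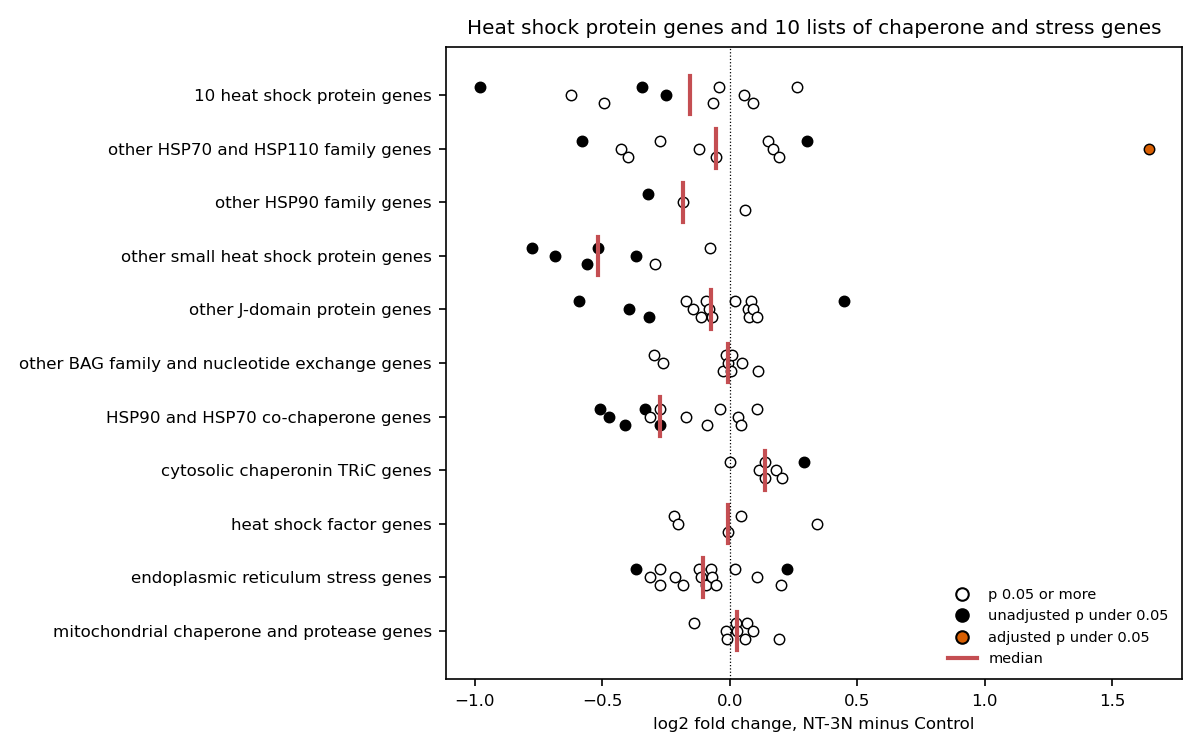
Log2 fold change of NT-3N minus Control (horizontal axis, log2 units) for each gene of the 10 heat shock protein genes and of 10 lists of chaperone and stress genes, with the median of a list as a red line. Hspa2, at 1.64, is the one gene past an adjusted p of 0.05, all 7 other small heat shock protein genes lie below 0, and the cytosolic chaperonin genes lie at or above it.

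The cytosolic chaperonin TRiC, which folds actin and tubulin, was higher for 7 of 7 subunit genes tested, by a median log2 fold change of 0.14, with values from 0.00027 to 0.29. Cct6a had 13.68 and 13.73 in Control and 13.90, 14.03 and 14.06 in NT-3N replicates 1, 2 and 3, a difference of 0.29 on the log2 scale (limma, adjusted p = 0.34). For 4 of the 7 all NT-3N arrays lay above both Control arrays, against 13.5% of all features. None passed the adjusted threshold, and 1 was higher at an unadjusted p under 0.05, against 4.95% of all features. NT-3N replicate 1 was the lowest array for 2 of the 7, against 5 of the 7 small heat shock protein genes and 8 of the 13 co-chaperones above.

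Of 16 other J-domain genes 7 were higher and 9 lower, with a median of -0.074. Dnajb2 had a log2 fold change of -0.39, Dnaja4 -0.59 and Dnaja1, a partner of cytosolic HSP70, -0.32. By these brightest probes the groups did not overlap for any of the 3. They did overlap on the other probe of Dnaja4 (-0.37) and the dimmest of Dnaja1 (-0.19), but not on the remaining probes of Dnaja1 (-0.42) and Dnajb2 (-0.45). Dnajc2, a ribosome-associated J-domain protein, had 0.45. Of 9 other BAG and nucleotide exchange genes 4 were higher and 5 lower, with a median of -0.0047, and Bag2 had -0.30 with an adjusted p of 0.61 in limma. The 5 heat shock factor and factor-binding genes had a median of -0.0070, and Hsf2 had -0.22 with an adjusted p of 0.61 in limma. Each of these 3 lists had 0 genes past the adjusted threshold, and 4, 0 and 0 genes at an unadjusted p under 0.05.

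Stress genes of other compartments gave small values. In the endoplasmic reticulum list 4 genes were higher and 12 lower, with a median of -0.10. Ddit3, which encodes the transcription factor CHOP of prolonged stress, had a log2 fold change of -0.37 and Atf4, a transcription factor of the integrated stress response, 0.22, with adjusted p of 0.35 and 0.38 in limma. Mitochondrial chaperone and protease genes were higher for 6 of 9, with a median of 0.029, and Hspa9, the mitochondrial HSP70, had 0.19 with an adjusted p of 0.54 in limma. Neither list had a gene past the adjusted threshold in limma, and at an unadjusted p under 0.05 the first had 2 and the second 0.

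Other markers measured beside these genes were the following. Immediate early genes, which respond to tissue handling as well as to cytokines, were higher for 11 of 12, with a median log2 fold change of 0.25. At an unadjusted p under 0.05, 4 of the 12 were higher, against 4.95% of all features. Egr1 had 8.66 and 9.32 in Control and 10.49, 11.50 and 10.59 in NT-3N replicates 1, 2 and 3, a difference of 1.87 on the log2 scale (limma, adjusted p = 0.17). Their mean log2 level was 10.82 and 10.78 in Control and between 11.11 and 11.55 in NT-3N, and their part in the heat shock protein values was not tested.

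All 13 epithelial markers lay well above background on all arrays, with a median log2 fold change of -0.030 and Cdx2 at -0.46, in a tissue labelled as colon. Fibroblast markers had a median of 0.047 with Pdpn at 1.49, and enteric neuron and glia markers -0.14 with Elavl4 at -0.14. B cell markers had a median of 0.96, with Ms4a1 at 3.65, and fat markers -0.27 with Cidec at -0.94. None of these 5 lists had a gene at an adjusted p under 0.05 in limma, and at an unadjusted p under 0.05 they had 0, 2, 0, 1 and 0 genes.

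**Figure D4:**
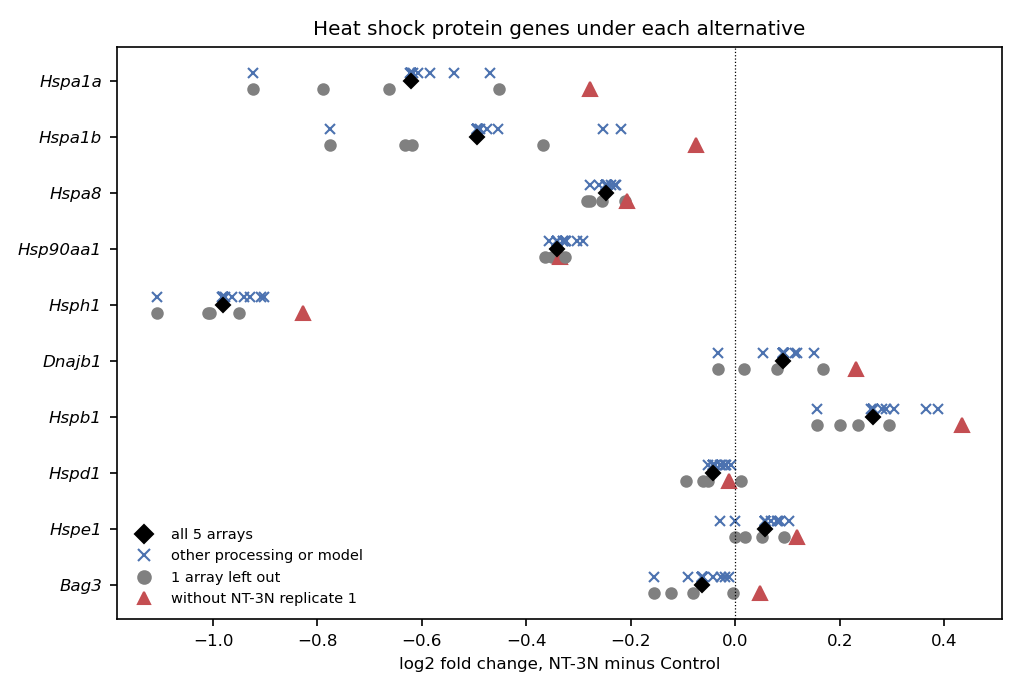
Log2 fold change of the 10 genes (horizontal axis, log2 units) with all 5 arrays, under other processing or models, and with 1 array left out. Hsph1, Hsp90aa1 and Hspa8 stay below 0 in all of them, and Hspa1b moves to -0.075 without NT-3N replicate 1.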

How the data were processed

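Spots were read by the authors in Agilent's Feature Extraction software, version 11.0.1.1. In the deposited scanner output each spot has an intensity, background-subtracted and detrended, with no scaling between arrays, and flags of outliers and of signal above background. The deposited table of log2 values, quantile-normalized by the authors, was an alternative only.

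Control spots and 69 to 184 outlier spots per array were left out of 59305, the processed signal was log2-transformed and quantile-normalized, and probes well above background on at least 2 arrays, with a value on both Control and at least 2 NT-3N arrays, were kept. Accessions without versions were matched to RefSeq symbols of assembly GRCm38.p6 for 32994 of 56605 probes. The file headers name the build mm9, so no coordinates come from the files. Between 70.6% and 72.9% of probes were well above background, no spot was saturated, and the number of arrays limits the precision.

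NT-3N was set against Control in limma 3.58.1 under R 4.3.3 (lmFit, eBayes with an intensity trend, two-sided, Benjamini-Hochberg over all 32917 features). Replicates are the arrays the labels number, from separate mice per the methods. The methods used a local-pooled-error test. It was an alternative here, rewritten from its published description, and limma, which also pools the spread over features, was the main test. Other alternatives were scaling, background, filter, variance model, array weights, replicate block, probe rule and leaving out each array. Limma and the local-pooled-error test were also run on simulated data, drawn from limma's own fitted model with independent arrays and features. There limma held its false discovery rate near the threshold, which this setting favours. The local-pooled-error test made many more false calls than the threshold allows. The simulation cannot decide how either test behaves on the real arrays, because it holds no deviant array and no correlated features.

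The members and lists were chosen with earlier results of these data known. Named were the 10 members, called genes or else the gene with the lowest p of each list, and the 5 genes most like Hspa1a and Hspa1b.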

Additional observations from a re-analysis of the deposited data

How the results depend on the processing

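Background correction by normexp on spot medians, and taking every probe as a feature, were chosen after seeing the data. The planned normexp on the mean spot signal was not run, since the scanner columns used here hold medians. Leaving out a Control array leaves 1, whose spread is then taken to be that of the NT-3N group.

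Of the 10 genes 0 were called higher under any of the 17 alternatives. Hsph1 was the 1 called lower, with array quality weights and with the local-pooled-error test. The latter made more false calls than its threshold allows on data simulated from limma's own model. At an unadjusted p under 0.05, 1 gene was higher, Hspb1, under the same 2 alternatives and without NT-3N replicate 1, so that the count ranged from 0 to 1 over the left-out arrays. The median moved by less than 0.22 log2 units, the pooled SD over arrays of the mean level of the 10 genes. That SD is larger than the size of the median itself, -0.16, so the comparison cannot show that the median is stable. With 1 array left out the median lay between -0.22 and -0.044, the latter without NT-3N replicate 1. Signs turned for genes near 0. Dnajb1 was at -0.033 and Hspe1 at -0.00035 with the replicate block and without NT-3N replicate 3, Hspe1 at -0.030 with the mean of its probes, Hspd1 at 0.0100 without Control replicate 2, and Bag3 at 0.046 without NT-3N replicate 1, in ranges over the left-out arrays from -0.033 to 0.23, -0.00035 to 0.12, -0.094 to 0.0100 and -0.16 to 0.046. By single probes Hspd1 was at 0.0023 and Hspe1 at -0.095 and -0.052. The cause was not tested.

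Nothing pairs mice of the same replicate number, and over features their deviations had a correlation of 0.13 (number 1) and 0.036 (number 2). At an unadjusted p under 0.05, 3 of the 10 genes were lower. The count was 4 with the replicate block and without NT-3N replicate 3, where Hspa1a joined, with 0 past the adjusted threshold, and 2 with no intensity trend, the mean of probes, the local-pooled-error test and without Control replicate 2. Hspa8 missed in all of these last 4, and in the local-pooled-error test Hsp90aa1 missed too and Hspa1a passed. Over all features the 41 higher and 6 lower calls of limma ranged from 0 to 192 and from 0 to 156 over the alternatives.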
